A study of Mus musculus with 6 samples.

Results

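The genes described are the angiopoietins (Angpt1, Angpt2 and Angpt4), their receptor tyrosine kinases Tek and Tie1, and the angiopoietin-like proteins Angptl1, Angptl2, Angptl4, Angptl6 and Angptl7. They were taken from the count table by gene symbol, current or former, and all 10 had a row among its 24061 genes. The family was chosen on the large fall of the read count of Angptl7 after Wt1 siRNA, so its values in this comparison are a description, given without a test. The cells were fibroblasts from fibrotic lungs of TGF-alpha transgenic mice, kept in culture and described in the labels as lung resident fibroblasts. Libraries 1 to 3 came from cells transfected with a stealth control siRNA and libraries 4 to 6 from cells transfected with a stealth siRNA directed at Wt1, a zinc finger transcription factor named after the Wilms tumor. Both groups carry the transgene, which encodes an epidermal growth factor family ligand. Its promoter, the age of the mice, the siRNA sequences and the hours between transfection and lysis are not stated in the sources used here. Whether replicate libraries are separate cultures or animals is not stated either, so the p-values reflect nothing but the variation among these 6 samples, which may be technical.

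Angiopoietins are secreted proteins with a coiled-coil segment and a fibrinogen-like domain, which binds the receptor Tek (also called Tie2) on endothelial cells. Angpt1 activates Tek and stabilises vessels, and in the lung it is made by pericytes and other mesenchymal cells, while Angpt2 is a context-dependent antagonist. Tie1 has no angiopoietin of its own and modulates Tek as a partner. The angiopoietin-like proteins share the domain plan, apart from Angptl8, which lacks the fibrinogen-like domain, but do not signal through Tek, and several act on lipid metabolism.

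Total counts per library were 26141900 to 32085700, to 6 digits, and 3 counts were worth 0.0926 to 0.113 CPM, a gene's count scaled to a common library total with TMM factors. Wt1 itself had 48.8, 55.7 and 51.4 CPM in the controls and 11.4, 8.62 and 7.91 CPM after its siRNA, which was 5.59-fold lower (quasi-likelihood test of edgeR, p adjusted by Benjamini-Hochberg = 5.98e-06). In all 14190 genes were tested, and at an adjusted p below 0.05 1284 were higher (9.05%) and 1459 lower (10.3%). Lower genes were thus 53.2% of the calls, and with library size scaling 68.1% (856 higher and 1829 lower). Without Wt1 siRNA library 4 579 genes were called higher and 785 lower, and 836 were called higher when library 5 was left out instead. The 13 fibroblast markers together had 28721 to 40103 CPM in the controls and 41225 to 48416 CPM after Wt1 siRNA. They were led by Col1a1, Fn1 and Col1a2. Of 12 tested, 5 were higher (41.7%) and 2 lower (16.7%), so the list did not move together. On average Col1a1 rose from 7979 to 17414 CPM and Col1a2 from 5791 to 9651 CPM, while Fn1 did not pass. The lower genes, named after their values were seen, were Col3a1 (7427 and 5389 CPM) and Pdgfra (1180 and 523 CPM).

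Among the other 9 genes of the family, 8 passed the filter on low counts. Of these 8, the ligands Angpt1 and Angpt4 and the lipase inhibitor Angptl4 fell, 0 rose, and Angpt2, Angptl2, Angptl6, Tek and Tie1 did not pass (edgeR). With DESeq2 and limma-voom 0 were higher as well, while before adjustment, at p below 0.05, Tek alone was higher (1 gene) and 3 genes were lower. The 3 lower and 0 higher genes of 8 stand beside a background of 10.3% of all genes called lower and 9.05% called higher. Before adjustment, 2343 of all 14190 genes tested were lower and 2208 higher. Since the family was picked with results of these data known, no test is attached to these counts. Control and treated libraries were fully separated for 5 of the 8 genes in the lower direction and for 1 in the higher direction, where 18.3% and 18.1% of all genes did so.

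**Figure D1:**
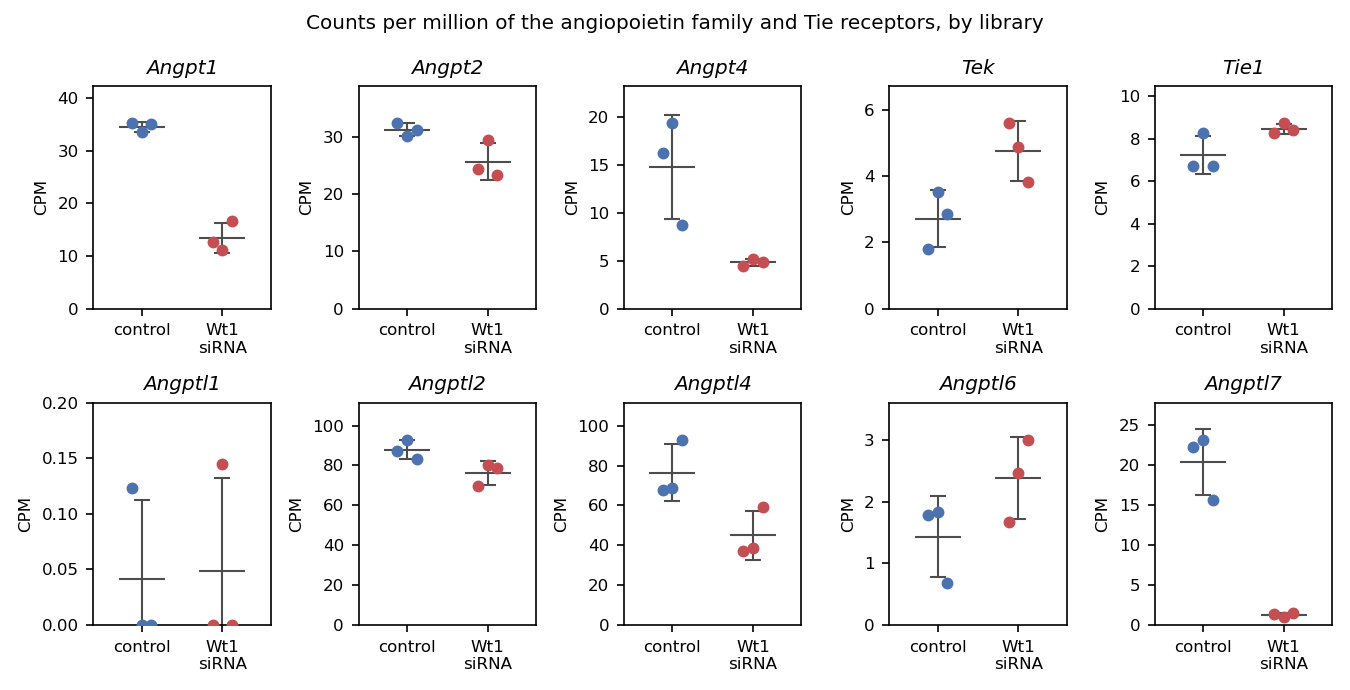
The CPM values of the 10 genes in each library (points; blue, control siRNA; red, Wt1 siRNA), with the mean and SD of each group of 3 libraries as bars. The y axes start at 0 and differ between panels. Angptl7 lies between 15.7 and 23.2 CPM in the controls and between 0.978 and 1.47 CPM after Wt1 siRNA.

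Angptl7 is a secreted protein known in humans from the trabecular meshwork and cornea of the eye, where it is linked to matrix deposition. It had 722, 659 and 417 reads in control libraries 1 to 3 and 36, 27 and 47 reads in Wt1 siRNA libraries 4 to 6. In CPM this was 22.3, 23.2 and 15.7 against 1.34, 0.978 and 1.47. Every library with Wt1 siRNA lay below every control, and control library 3 was the lowest of its group. The means were 20.4 ± 4.10 and 1.26 ± 0.25 CPM (SD, n = 3), 16.0-fold lower, with a log2 fold change of -4.00 ± 0.25 (SE). By size of the log2 fold change it ranked 16 of 14190 genes, and with any 1 library left out the value was between -4.16 and -3.85.

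The gene (GRCm38 chromosome 4, 148495181 to 148500462, reverse strand, 5 exons) lies inside the span of Mtor, the kinase of the growth pathway that bears its name, which is read from the opposite strand. No exon base is shared (0 of 2157). Mtor had 40.7 ± 4.51 CPM in the controls and 40.8 ± 2.26 CPM after Wt1 siRNA, and its log2 fold change of 0.00 ± 0.12 missed the threshold (edgeR adjusted p = 0.991). The sources used here do not state whether counting used strand, so reads from Mtor introns within Angptl7 exons cannot be told apart from its own. The levels of Mtor overlapped between the groups, and whether its reads contribute to the count of Angptl7 was not tested.

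The 250 bases before the annotated start are shown for Angptl7 and Angpt4, the genes with the largest falls in the family for which the RefSeq promoter table (GRCm38.p6) had an entry. That table matched 7 of the 10 genes; the others are Angpt1, Angpt2 and Angptl4. Capitals mark motif matches, and both sequences run 5′ to 3′ on the strand of the gene. They span chr4:148500463-148500712 on the reverse strand and chr2:151910957-151911206 on the forward strand.

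Angptl7 promoter: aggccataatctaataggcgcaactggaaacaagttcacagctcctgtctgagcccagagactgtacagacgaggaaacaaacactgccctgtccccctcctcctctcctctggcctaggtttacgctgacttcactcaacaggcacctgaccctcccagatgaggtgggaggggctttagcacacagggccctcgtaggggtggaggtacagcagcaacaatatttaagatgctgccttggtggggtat

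Angpt4 promoter: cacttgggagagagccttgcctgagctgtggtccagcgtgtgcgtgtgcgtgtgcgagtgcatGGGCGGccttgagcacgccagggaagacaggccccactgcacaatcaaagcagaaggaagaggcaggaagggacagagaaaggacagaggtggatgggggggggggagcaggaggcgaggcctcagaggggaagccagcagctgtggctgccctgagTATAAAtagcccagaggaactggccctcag

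Motifs searched on both strands were GCGNGGGNG (the type bound by WT1 and EGR factors), GGGCGG (GC box), ACGTG (core of the hypoxia response element), the TATA box TATAAA, the TEAD-type motif CATTCC and the CCAAT box. GCGNGGGNG and GGGCGG can overlap each other. Of 32851 mouse promoters of this length, 10.5% held GCGNGGGNG, 32.7% GGGCGG, 16.6% ACGTG, 12.4% TATAAA, 12.6% CATTCC and 33.8% CCAAT. The Angptl7 window held 0 matches to these 6 motifs, and the Angpt4 window held 1 TATAAA, beginning 30 bases before the start, and 1 GGGCGG. Of the other 5 windows, those of Tek (94739039 to 94739288), Angptl6 (20879711 to 20879960) and Angptl2 (33215711 to 33215960) run partly into the gene's own span. Among the 5, Angptl2 had 2 GGGCGG matches and the rest had 0 of any motif. Absence says only that these letters are not in this window. G and C made up 54.4% of the Angptl7 window and 62.4% of the Angpt4 window, against a median of 52.4% over all promoters.

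Among the ligands of Tek, Angpt1 and Angpt4 fell and Angpt2 did not pass. Angpt1, the activating ligand (chromosome 15, 42424667 to 42676977), had 35.2, 33.5 and 35.0 CPM in the controls and 12.6, 11.1 and 16.7 CPM after Wt1 siRNA. The controls were close together, and the groups stood well apart, with Wt1 siRNA library 6 the highest of the treated libraries. Its level fell from 34.6 ± 0.94 to 13.4 ± 2.89 CPM (log2 fold change -1.36 ± 0.16, 2.57-fold lower, edgeR adjusted p = 2.14e-04). Its exons share 737 of 5205 bases (14.2%) with the antisense gene Gm17473, not analysed here, and without strand their reads cannot be told apart. Angpt1 passed under all 13 alternatives of test, scaling, filter and left-out library, with log2 fold changes of -1.55 to -1.24.

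Angpt4, the mouse counterpart of human ANGPT4 and a Tek ligand once named angiopoietin-3 in the mouse (chromosome 2, 151911207 to 151945337), had 16.2, 19.3 and 8.75 CPM in the controls and 4.46, 5.18 and 4.85 CPM after Wt1 siRNA. Control library 3 stood well below the other controls but above the treated libraries, which were nearly level with each other. The fall was 3.06-fold (log2 fold change -1.61 ± 0.27, edgeR adjusted p = 0.00165), and all 13 alternatives called it, with log2 fold changes from -1.88 (without control library 3) to -1.37 (without control library 2).

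Angpt2 (chromosome 8, 18690263 to 18741562) had 32.5, 30.3 and 31.3 CPM in the controls and 24.4, 29.5 and 23.4 CPM after Wt1 siRNA. Each treated library was below each control, the nearest pair being 29.5 and 30.3 CPM. The log2 fold change of -0.28 ± 0.13 did not pass (edgeR adjusted p = 0.162, and 0.0697 to 0.398 over the alternatives). Angpt2 lies inside the span of Mcph1, a gene of chromosome condensation and the DNA damage response on the opposite strand, with 0 shared exon bases. Mcph1 was lower too, at 15.2 ± 4.65 and 9.19 ± 0.55 CPM (log2 fold change -0.72 ± 0.23, edgeR adjusted p = 0.0445), a call that held in 7 of 13 alternatives and was lost with limma-voom (adjusted p = 0.0724) and without any 1 library other than control library 2 (0.0705 to 0.176). Whether reads of Mcph1 contribute to the count of Angpt2 was not tested.

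The balance of Angpt2 and Angpt1, without Angpt4, was taken as the ratio of their reads per kilobase of merged exons within each library. No scaling of the libraries affects it. Its level depends on the gene lengths used, while the difference in log2 ratio between the groups does not. The ratio of Angpt2 to Angpt1 was 1.30, 1.27 and 1.26 in the controls and 2.74, 3.75 and 1.98 after Wt1 siRNA. All treated libraries were above all controls, and the treated libraries differed among themselves far more than the controls did. The mean log2 ratio went from 0.35 ± 0.02 to 1.45 ± 0.46 (SD, n = 3), a difference of 1.09, or 2.13-fold. The exact two-sided permutation test gave p = 0.1, the smallest p that 3 against 3 libraries allow, so that 0.05 cannot be reached. Leaving out 1 library gave differences of 0.86 to 1.32.

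**Figure D2:**
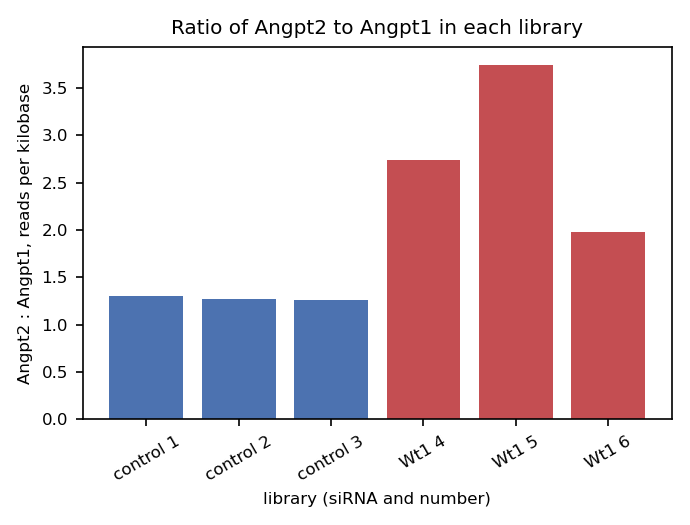
Ratio of Angpt2 to Angpt1 reads per kilobase of exon (y axis, from 0) in each of the 6 libraries. The 3 controls stand at 1.26 to 1.30 and the 3 libraries with Wt1 siRNA at 1.98 to 3.75.

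Neither receptor passed. Tek (chromosome 4, 94739086 to 94874976) had 58, 100 and 76 reads in the controls and 151, 135 and 122 reads after Wt1 siRNA, or 1.79, 3.52 and 2.86 against 5.61, 4.89 and 3.82 CPM. The groups did not overlap, but control library 2 and Wt1 siRNA library 6 were close. The log2 fold change was 0.81 ± 0.33, with an edgeR adjusted p = 0.106 and 0.0569 to 0.301 over the alternatives. Tie1 (chromosome 4, 118471191 to 118489849) had 6.70, 8.27 and 6.73 CPM in the controls and 8.25, 8.73 and 8.38 CPM after Wt1 siRNA. These ranges overlapped, and the log2 fold change of 0.23 ± 0.20 did not pass (edgeR adjusted p = 0.477).

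Tek and Tie1 are receptors of endothelial cells, and other endothelial genes were also counted in these cultures. The 18 endothelial markers summed to 243 to 291 CPM in the controls and 267 to 323 CPM after Wt1 siRNA, and 0 of them lacked reads in every library. Cdh5, the cadherin of endothelial junctions, had 53.8 ± 12.1 and 43.9 ± 5.93 CPM, and Pecam1, an adhesion molecule of the same junctions, had 13.1 ± 1.49 CPM in the controls and a log2 fold change of -0.13 ± 0.17. Neither passed (edgeR adjusted p = 0.246 and 0.657). Vwf, the von Willebrand factor, had 42 reads summed over the 6 libraries. Of 17 markers tested, Eng, Calcrl and Ptprb were higher (17.6%) and Kdr lower (5.88%), beside 9.05% higher and 10.3% lower over all genes. The list's median log2 fold change was -0.13, against 0.00 over all genes tested. The calls of Eng, the TGF-beta coreceptor endoglin, and Kdr, a VEGF receptor, were lost without Wt1 siRNA library 4 and without control libraries 1 or 3, and that of Eng also without Wt1 siRNA library 5 and with library size scaling (adjusted p at most 0.188). The part of endothelial RNA in the values of Tek and Tie1 was not tested, and in bulk RNA fewer cells of a type and less RNA per cell cannot be told apart.

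The other marker lists gave these summed levels, first for controls and then for Wt1 siRNA. Pericyte and smooth muscle markers, the cells known to make Angpt1, had 574 to 716 and 522 to 661 CPM, macrophage and monocyte markers 41.9 to 51.2 and 35.5 to 39.6 CPM, and epithelial markers 49.0 to 66.6 and 43.3 to 49.8 CPM. Mesothelial markers had 199 to 246 and 152 to 194 CPM, and adipocyte markers 4.58 to 6.33 and 1.93 to 4.09 CPM. The ranges overlapped for the pericyte and epithelial lists and did not for the macrophage, mesothelial and adipocyte lists, which were lower after Wt1 siRNA. By single genes 0 of 7 macrophage and 0 of 7 epithelial markers tested were higher and 1 of each lower (14.3% each, edgeR). Of 7 mesothelial markers 3 were higher and 3 lower (42.9% each). Over all genes 9.05% were higher and 10.3% lower. At an unadjusted p below 0.05 the macrophage and epithelial lists also had 0 higher. Neither the 11 pericyte and smooth muscle markers tested nor the 1 adipocyte marker tested passed, and before adjustment 1 of the 11 was higher and 2 were lower. The lower macrophage sum went with Cd14, an endotoxin coreceptor (18.6 and 8.41 CPM on average, edgeR adjusted p = 0.00370), while Lyz2, the lysozyme of macrophages, had 19.7 and 21.7 CPM and did not pass. Of the mesothelial markers Lrrn4 (70.9 and 16.5 CPM), Upk3b and Bnc1 fell and Msln (21.3 and 38.8 CPM), Krt19 and Nkain4 rose, and the adipocyte sum was nearly all Lipe (5.18 and 3.03 CPM, which did not pass). Of these, Upk3b, Bnc1, Krt19 and Nkain4 were named after their values were seen. The part of these lists in the falls of Angptl7, Angpt1, Angpt4 and Angptl4 was not tested.

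Among the remaining angiopoietin-like genes, Angptl4 fell and Angptl2 and Angptl6 did not pass. Angptl4, a secreted inhibitor of lipoprotein lipase that is induced by fasting, hypoxia and PPAR factors (chromosome 17, 33774900 to 33781575), had 67.9, 68.5 and 93.0 CPM in the controls and 37.0, 38.7 and 59.1 CPM after Wt1 siRNA. The groups did not overlap, but control library 3 and Wt1 siRNA library 6 each stood above the other libraries of their group. The means were 76.5 ± 14.3 and 44.9 ± 12.3 CPM, a log2 fold change of -0.77 ± 0.19 or 1.70-fold lower (edgeR adjusted p = 0.0134). The call was lost without control library 3 (adjusted p = 0.0696), Wt1 siRNA library 4 (0.0844) or Wt1 siRNA library 5 (0.0510).

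Angptl2, a proinflammatory member of the family (chromosome 2, 33215951 to 33247725), had 87.3, 93.0 and 83.4 CPM in the controls and 69.5, 80.4 and 78.6 CPM after Wt1 siRNA. The treated libraries were all lower, but the log2 fold change of -0.21 ± 0.11 did not pass (edgeR adjusted p = 0.216). It lies inside Ralgps1, a guanine nucleotide exchange factor gene on the opposite strand, with 0 shared exon bases. Ralgps1 went the other way, from 5.29 ± 1.16 to 10.6 ± 0.82 CPM (log2 fold change 0.998 ± 0.22, edgeR adjusted p = 0.00783).

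Angptl6, known in the mouse as a factor that raises energy expenditure (chromosome 9, 20873808 to 20879822), had 58, 52 and 18 reads in the controls and 45, 68 and 96 reads after Wt1 siRNA. Its groups overlapped, and the log2 fold change of 0.73 ± 0.48 did not pass (edgeR adjusted p = 0.334). Of its 1582 exon bases 265 (16.8%) are shared with Shfl, an interferon-induced antiviral gene on the opposite strand, which had 3.40 ± 0.83 and 5.18 ± 1.77 CPM (edgeR adjusted p = 0.227). Angptl1, described as an inhibitor of vessel growth (chromosome 1, 156839023 to 156861078), had 4 reads in control library 1, 4 in Wt1 siRNA library 5 and 0 in the other 4 libraries. It did not pass the filter, and at this depth a difference was not detectable. A gene around it, Ralgps2 on the opposite strand, had 8.56 ± 0.96 and 7.50 ± 1.62 CPM and shares 0 exon bases with it. Of the 2841 exon bases of Angptl1, 465 (16.4%) are shared with Gm37802, also on the opposite strand and not analysed here.

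Outside the 10 genes, Angptl8, a regulator of lipoprotein lipase known as a product of liver and fat, was low. It had 2.35, 1.51 and 0.676 CPM in the controls and 0.892, 1.56 and 1.28 CPM after Wt1 siRNA, which overlap (edgeR adjusted p = 0.784). The commonest count above 0 was 4 to 8 reads, depending on the library, and a single read was somewhat less common.

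**Figure D3:**
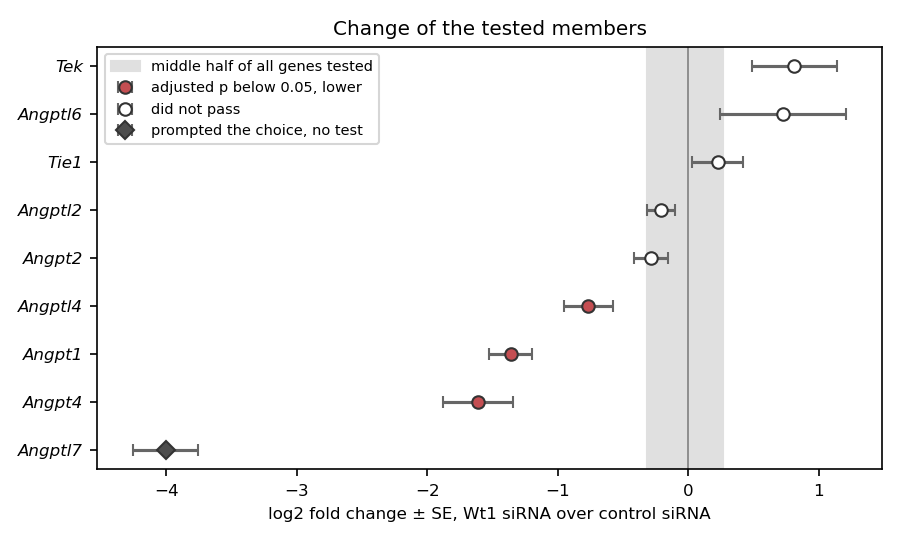
Log2 fold change with its standard error (x axis) of the 9 tested genes, Wt1 siRNA over control siRNA, from the edgeR fit over all genes. Red circles passed at an adjusted p below 0.05, open circles did not, and the diamond is Angptl7, which is given without a test. The grey band runs from the lower to the upper quartile of all genes tested, -0.31 to 0.27.

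Being nested inside another gene was shared by 4 of the 10 genes: Angptl1, Angptl2, Angptl7 and Angpt2 each lie within the span of a protein-coding gene of the opposite strand. In the GENCODE annotation this holds for 418 of 20134 protein-coding genes of the table (2.08%), a comparison that stands as a description. Both genes were tested in 3 of the 4 pairs, and their log2 fold changes are set side by side in the plot of nested pairs; the difference within a pair was not tested.

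**Figure D4:**
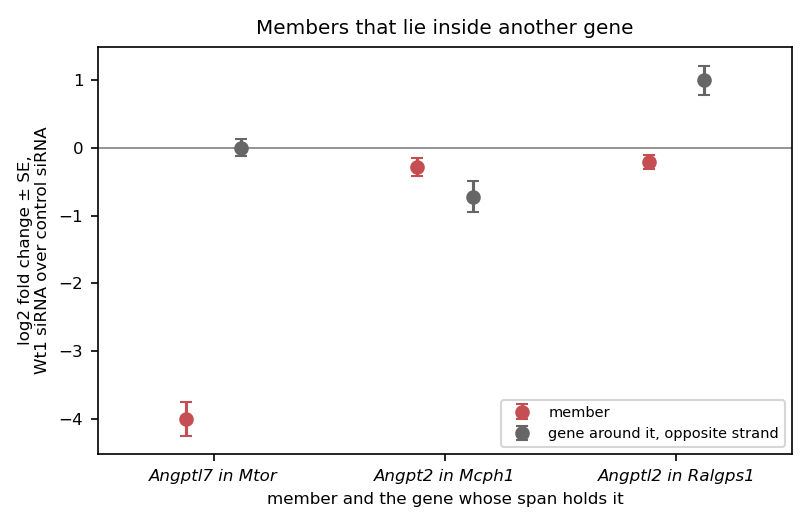
Log2 fold change with its standard error (y axis) of 3 nested genes (red) and of the gene on the opposite strand whose span holds each (grey). Angptl7 stands at -4.00 and Mtor at 0.00, Angpt2 at -0.28 and Mcph1 at -0.72, and Angptl2 at -0.21 and Ralgps1 at 0.998.

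Levels were compared between genes as CPM per kilobase of merged exons. In the controls Angptl4 (21.6 ± 4.05) and Angptl2 (14.0 ± 0.77) were the highest, followed by Angptl7 (9.45 ± 1.90), Angpt2 (8.50 ± 0.30), Angpt1 (6.64 ± 0.18) and Angpt4 (6.32 ± 2.33). Tie1 (1.47 ± 0.18), Angptl6 (0.905 ± 0.41) and Tek (0.577 ± 0.19) were lower on the same scale, and Angptl1 was near 0. Over the 3 controls the ranges of Angptl7 and Angpt2 overlapped, as did those of Angpt1 and Angpt4 and of Angptl6 and Tek. The wide range of Angpt4 (3.75 to 8.29) also overlapped those of Angpt2 (8.20 to 8.81) and Angptl7 (7.26 to 10.7). With the longest transcript as the length, Angptl2 (24.7 ± 1.36) came before Angptl4 (23.1 ± 4.33), and the rest of the order was the same.

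After Wt1 siRNA the level per kilobase of Angptl7 was 0.585 ± 0.12, rank 9 in place of 3, below Tek (1.01 ± 0.19) and Tie1 (1.72 ± 0.05). Angptl4 (12.7 ± 3.47) and Angptl2 (12.1 ± 0.93) then overlapped, and Angpt2 (6.98 ± 0.88) stood apart from Angpt1 (2.58 ± 0.56) and Angpt4 (2.07 ± 0.15). Of the summed level per kilobase of the 10 genes, Angptl7 made up 15.0%, 15.1% and 10.7% in the controls and 1.68%, 1.11% and 1.49% after Wt1 siRNA. The share of Angpt2 was 11.5% to 12.8% in the controls and 13.8% to 19.5% after Wt1 siRNA. Shares of a sum move together, so that a share can rise while its level does not.

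**Figure D5:**
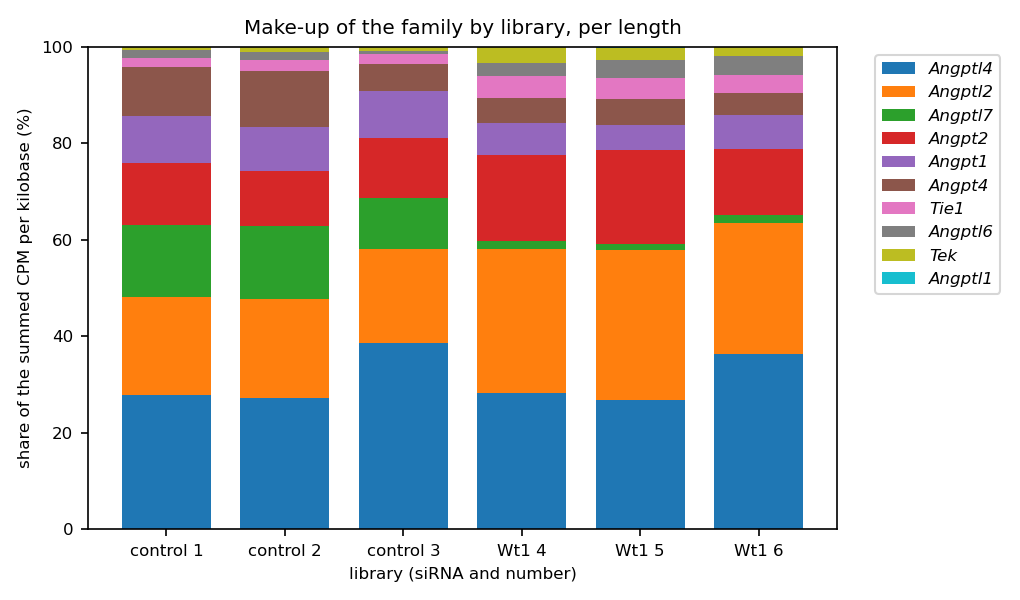
Share of each gene in the summed CPM per kilobase of the 10 genes (y axis, percent) for each library (x axis). The green segment of Angptl7 goes from 10.7% to 15.1% in the controls to 1.11% to 1.68% after Wt1 siRNA.

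Genes around the angiopoietin and Tie pathway were called in both directions, while most did not pass. Of 23 tested genes among 25 partners of angiopoietin and Tie signalling, 3 were higher (13.0%), 4 lower (17.4%) and 16 did not pass (edgeR), beside 9.05% higher and 10.3% lower over all genes, with a median log2 fold change of -0.07 against 0.00 over all genes. Svep1, an extracellular protein that acts through Tie1 in zebrafish and mouse, fell from 297 ± 50.1 to 144 ± 8.78 CPM (log2 fold change -1.05 ± 0.13, edgeR adjusted p = 2.65e-04). Pik3r1, the regulatory subunit of phosphoinositide 3-kinase, fell by 0.85 ± 0.11 and Grb14, an adaptor that binds activated Tek, by 1.22 ± 0.18 on the log2 scale. Mmp14, a membrane metalloproteinase, was the other lower gene (-0.39 ± 0.10), and its call was lost when control library 1 or either of Wt1 siRNA libraries 4 and 5 was left out (adjusted p at most 0.0926).

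The 3 higher genes of that list were named after their values were seen, and Ptprb among them is also counted with the endothelial markers above. Ptprb, the phosphatase that removes the activating phosphates of Tek, had 6.60, 3.20 and 4.58 CPM in the controls and 14.1, 11.4 and 8.48 CPM after Wt1 siRNA. The groups did not overlap (log2 fold change 1.23 ± 0.28, edgeR adjusted p = 0.0103), and the adjusted p was 0.0655 without Wt1 siRNA library 4. The integrin chains Itgb1 (0.50 ± 0.10) and Itgav (0.63 ± 0.12), which can bind angiopoietins, rose as well (edgeR adjusted p = 0.00386 and 0.00388).

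Of 22 tested genes among 25 receptors, lipases and processing proteases tied to angiopoietin-like proteins, 3 were higher (13.6%), 5 lower (22.7%) and 14 did not pass, beside the same 9.05% and 10.3%; the median was -0.23 on the log2 scale. The proprotein convertases, which cleave angiopoietin-like proteins, did not move together. Pcsk5 fell from 54.3 ± 4.44 to 17.3 ± 3.11 CPM, 3.14-fold lower (edgeR adjusted p = 4.88e-05). Furin rose by 0.68 ± 0.11 on the log2 scale, with 87.4 ± 8.88 CPM in the controls (edgeR adjusted p = 0.00123). Gpc4, a cell surface proteoglycan, rose by 0.76 ± 0.11. Lpl, the lipoprotein lipase that Angptl4 inhibits, had 63.9, 54.5 and 49.3 CPM in the controls and 41.8, 36.2 and 32.8 CPM after Wt1 siRNA (log2 fold change -0.60 ± 0.14, edgeR adjusted p = 0.0102). Lpl was named after its values were seen, like the lipoprotein receptor Vldlr, which was higher, and Sdc4, Itga1 and Pcsk6, which were lower. Only 3 genes of the list were lower when control library 1, control library 3 or library 6 of the treated group was left out, and 2 when library 4 was. Leaving out each of the 6 libraries in turn, the calls of Vldlr, Itga1 and Pcsk6 were lost for 4 or 5 of them, and that of Sdc4 for 3 (adjusted p at most 0.0694).

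Among genes with a fibrinogen-like domain outside the family, 13 had a row, of which 6 had no read in any library and 4 were tested. Their median log2 fold change was -0.67. Of these 4, Mfap4, a microfibril protein (-0.73 ± 0.16), and Tnxb, the matrix protein tenascin-X (-0.61 ± 0.15), were lower and 0 higher (edgeR; DESeq2 and limma-voom also 0). Before adjustment, at p below 0.05, 1 of them was higher and 3 lower. Without Wt1 siRNA library 4 both calls were lost (adjusted p = 0.0569 and 0.0737), and without control library 3 1 gene was higher. Over all genes 9.05% were higher and 10.3% lower, and before adjustment 2208 of 14190 were higher and 2343 lower. With 4 genes tested the counts are too few to be set against these shares.

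PPAR targets, the programme that is known to induce Angptl4, were divided. Of 20 tested among 25, 6 were higher (30%), 5 lower (25%) and 9 did not pass, beside 9.05% and 10.3% over all genes, with a median log2 fold change of -0.09. Txnip, an inhibitor of thioredoxin, rose from 176 ± 14.0 to 374 ± 30.1 CPM (2.12-fold, edgeR adjusted p = 8.27e-05), and Plin2, a coat protein of lipid droplets, from 138 ± 9.19 to 268 ± 17.2 CPM (1.95-fold, adjusted p = 1.44e-04). Acot1, Acot2, Fabp3 and Fabp4 were the other higher genes; Acot1 and Acot2 are similar in sequence, so that reads could be shared. Acadl, a mitochondrial acyl-CoA dehydrogenase, had 46.2 ± 3.39 CPM in the controls and 25.1 ± 1.12 CPM after Wt1 siRNA, 1.84-fold lower (edgeR adjusted p = 4.84e-04). Acaa2, Ucp2 and Pdk4 were lower as well, with log2 fold changes between -0.75 and -0.53. The lower genes named here are genes of fatty acid oxidation or mitochondrial fuel use, while the higher ones include the fatty acid binding proteins Fabp3 and Fabp4.

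Likeness to Angptl7 was measured as the Pearson correlation of log2 CPM over the 6 libraries, given without a p because the libraries form 2 groups that share the difference. Among the 5 most alike named genes were Acadl (r = 0.998), Stk38, Inf2 and Rasl11a (r = 0.997 each). Their log2 fold changes were -0.88, -0.39, -0.61 and -1.75. For Angptl4, the gene with the highest level per kilobase of merged exons, the 5 most alike were Sgcd (r = 0.997), Bcl2l11 (0.994), Steap4 (0.992), Sorcs1 (0.992) and Hmgb1 (0.990). Like Angptl4, all 5 were highest in control library 3 among the controls and in Wt1 siRNA library 6 among the treated libraries. The 5 were picked for likeness over the same 6 libraries, so this shared pattern follows from the choice. Sorcs1 had 13.3, 10.7 and 20.6 CPM and then 2.57, 2.57 and 7.76 CPM. Steap4 was near the floor, with 0 reads in Wt1 siRNA libraries 4 and 5, and Sgcd, Bcl2l11 and Hmgb1 did not pass (edgeR adjusted p = 0.203, 0.0583 and 0.0527).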

How the data were processed

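RNA of 6 libraries, 3 per group, was analysed. The authors deposited raw whole-number counts of reads per Entrez gene ID; per the submitters' processing notes bcl2fastq, CASAVA 1.8, TopHat, DESeq and mm10 (GRCm38) were used, in roles not stated. The counting tool, annotation and strand setting are not stated in the sources used here. Symbols came from RefSeq GRCm38.p6 (23976 IDs) or GENCODE (7); 78 IDs stayed unnamed. Differences were tested with glmQLFTest in edgeR 4.0.16 (R 4.3.3) with TMM, filterByExpr and the group alone, adjusted by Benjamini-Hochberg over 14190 genes at 0.05; it was tested on simulated data. A standard error is the absolute log2 fold change over the square root of F. Alternatives used DESeq2 1.42.0, limma-voom (limma 3.58.1), other scalings and filters, and left-out libraries. Pairs within a group differed by chi-square values of 18.9 to 70.9 per degree of freedom, more than counting noise, which does not show separate cultures.

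The family and the 4 pathway and 7 marker lists were chosen with earlier results of these data known. Named genes were the family, Wt1, Angptl8, genes overlapping a member, the 3 called genes with the smallest p of each pathway list, the 3 most abundant of each marker list and the 5 most alike Angptl7 or Angptl4 (log2 CPM, prior count 2); others were named after their values were seen, and some genes the rule names are not reported here. Counts of reads are not independent molecules, so limits from 3 counts cover counting error only.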

Additional observations from a re-analysis of the deposited data

How the results depend on the processing

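No paired analysis was possible because the replicate numbers of the groups, 1 to 3 and 4 to 6, are not shared. Fold changes were recomputed under up to 13 alternatives each. Across all results compared with their alternatives, 743 values kept direction and side of the threshold (counts: stayed within 1.5 times), 42 kept direction but lost the call, 10 counts or orders moved and 6 changed sign. The 743 include the values of Angptl7, which is given without a test, so that only their direction is to be read. They also include the ratio of Angpt2 to Angpt1, which was judged by direction alone. Genes called across the table ranged from 579 to 1253 higher and from 785 to 1406 lower with 1 library left out. The family count, Angptl7 aside, was 2 to 3 lower and 0 to 0 higher, Angptl4 being the call that was lost. For left-out libraries the lower count was 2 to 5 among receptors and proteases of angiopoietin-like proteins, and 0 to 3 among fibrinogen-like domain genes, with 0 to 1 higher. The order of levels per kilobase changed in 1 pair, Angptl2 and Angptl4, with the longest transcript as the length. Genes that did not pass changed sign: Angptl8 ranged from -0.63 to 0.18 with 1 library left out, positive without control library 1, and Mtor from -0.072 to 0.088, negative without control library 3 (-0.072) and without library 4 (-0.00125) or library 5 (-0.032) of the treated group. Mtor was also negative with library size scaling (-0.083) and with at least 50 reads in 3 libraries (-0.00033). Library size scaling moved the median of all genes from 0.00 to -0.08 (log2); no call of the family changed. The cause of these changes was not tested. Low counts limit Angptl1, Angptl6 and Tek, where the lowest library held 0, 18 and 58 reads.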

Other observations

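Among genes with few reads, a single read was not the commonest count. A count of 1 read was found for 129 to 206 genes per library, while the commonest count above 0 was 4 to 8 reads, held by 165 to 228 genes. It was 8 reads in control library 2, 5 in control library 1 and Wt1 siRNA library 6, and 4 in the other 3 libraries. Angptl1 had 4 reads in 2 libraries and 0 in the other 4. How many separate molecules stand behind such a count was not tested.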
